A study of Mus musculus with 6 samples.

Results

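Elastic fibre and lysyl oxidase genes were examined in mouse tracheal mesenchyme before and after inhaled SO2. The set named 10 genes: the elastin gene Eln, the fibrillin gene Fbn1, the fibulin genes Fbln1, Fbln2 and Fbln5, the lysyl oxidase genes Lox, Loxl1 and Loxl2, and the microfibril-associated genes Mfap4 and Mfap5. Members were taken as all array probe sets that the platform annotation assigns to exactly 1 of these symbols, which gave 17 of 45037 probe sets and 8 of the 10 genes, of 18193 genes in all. Both Loxl2 probe sets are also annotated to a second gene, Gm21451, and no probe set was listed for Fbn1 in the annotation used here, so Loxl2 and Fbn1 are not analysed here. The 6 samples were male C57Bl/6 mice, without transgene, that the study's methods put at 8 to 12 weeks of age. The 3 control samples came from uninjured mice, and the 3 others from mice taken 48 h post injury (48 hpi) by 4 h of 500 ppm SO2. Each sample pooled the tracheas of 4 mice, and the mesenchyme was what remained after the epithelium had been peeled off following dispase treatment.

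Elastic fibres are made of a core of crosslinked elastin laid down on a scaffold of fibrillin microfibrils. Cells secrete tropoelastin, fibulins and other accessory proteins help it to assemble on the microfibrils, and enzymes of the lysyl oxidase family oxidise lysine residues so that elastin, and also collagen, become covalently crosslinked. In the airway wall these fibres lie in the stroma beneath the epithelium and around smooth muscle and cartilage, and let the tube recoil.

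Levels are given as RMA expression on the log2 scale, the deposited unit, in which a difference of 1 is a 2-fold change. A gene is described by its brightest probe set unless another is named, and a change was called at an adjusted p under 0.05 in limma (Benjamini-Hochberg over all probe sets). Control and injured samples that carry the same replicate number deviated together, so the test was repeated with the number as a block, and both counts or calls are given where they differ. The brightest probe sets of the 8 genes lay between the 90.7th and 98.7th percentile of brightness on the arrays.

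At 48 hpi Loxl1 and Fbln2 rose, by 1.47-fold and 1.45-fold, and 0 genes fell without the block. Fbln1 and Mfap4 were lower, by 1.67-fold each, and passed when the replicate number was blocked. Eln had a log2 fold change of 0.14 within a wide spread. Of the 8 genes 2 rose, where 4.97% of all genes did, and 0 fell in limma, where 1.24% did. At an unadjusted p under 0.05 in limma, 3 were higher (Fbln2, Loxl1 and Mfap5) and 3 lower (Fbln1, Fbln5 and Mfap4). The share of all genes at this unadjusted threshold was not counted. Limma counts at unadjusted p, here and below, therefore have no background beside them. With the block 2 rose and 2 fell, beside 8.77% and 4.64% of all genes. The median log2 fold change of the 8 genes was 0.29, against -0.01 over all genes.

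**Figure D1:**
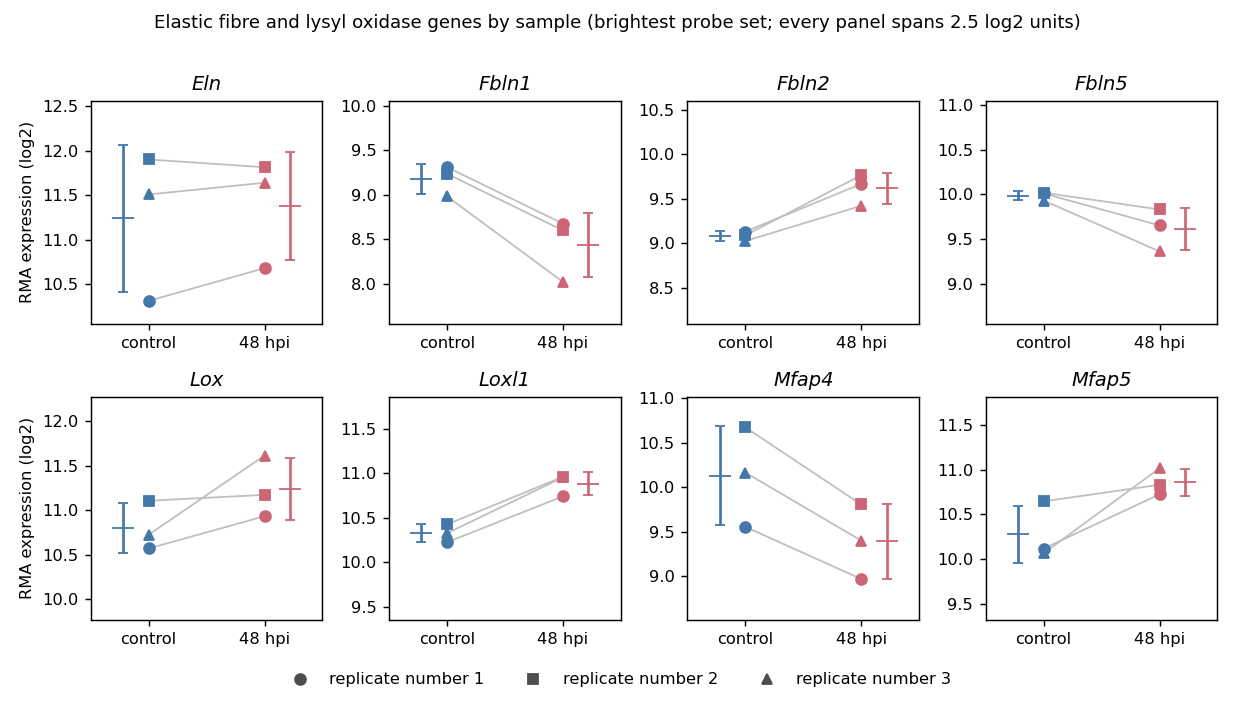
RMA expression on the log2 scale (vertical axes) of the 8 measured genes in control and 48 hpi samples (horizontal axes), each symbol being a sample, grey lines joining equal replicate numbers, and means ± SD (n = 3) at the sides. Every panel spans 2.5 log2 units. Loxl1 lay at 10.23 to 10.43 in controls and 10.74 to 10.96 at 48 hpi, whereas Eln differed more between replicate numbers than between groups.

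Eln, which encodes tropoelastin, was at 10.31, 11.90 and 11.51 in control replicates 1 to 3 and at 10.68, 11.81 and 11.64 in 48 hpi replicates 1 to 3. The samples numbered 1 were the lowest of both groups, and the groups overlapped throughout. The log2 fold change was 0.14 ± 0.45 (SE, n = 3 per group) with a 95% confidence interval of -0.92 to 1.19 (adjusted p = 0.904 in limma, and 0.473 with the block), so that a change of 2-fold upward lies inside the interval. The second Eln probe set gave 0.32 ± 0.51. Its control values ran from 7.26 to 9.21, again lowest in replicate 1. Within replicate numbers the differences of the brightest probe set were 0.37, -0.09 and 0.13. The sign of the Eln change rested on single samples: it was -0.33 without control replicate 1 and -0.08 without 48 hpi replicate 2.

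Of the microfibril-associated genes, Mfap4, whose product binds elastin and microfibrils, was at 9.55, 10.67 and 10.16 in controls and 8.97, 9.81 and 9.40 at 48 hpi. The groups overlapped, but each injured sample lay below the control of its own number, by 0.59, 0.87 and 0.76. Like Eln, Mfap4 was lowest in the samples numbered 1 and highest in those numbered 2 in both groups. The log2 fold change was -0.74 ± 0.31 (SE, n = 3 per group, adjusted p = 0.257 in limma) and Mfap4 fell with the block (SE 0.09, adjusted p = 0.00627). Mfap5, which encodes a fibrillin-binding glycoprotein (MAGP-2), was at 10.12, 10.65 and 10.06 in controls and 10.73, 10.83 and 11.02 at 48 hpi. All injured samples lay above all controls for this probe set, with a log2 fold change of 0.58 ± 0.17 that passed neither without the block (adjusted p = 0.117 in limma) nor with it (0.0504). The second Mfap5 probe set overlapped between groups at 0.25 ± 0.25. Without control replicate 2, the highest of the controls, Mfap5 reached 0.77 and an adjusted p of 0.0401 in limma. It was not called when any other sample was left out (0.169 to 0.322).

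Within the lysyl oxidase family, Loxl1 rose. Its enzyme acts on elastin and is bound by fibulin-5. It was at 10.23, 10.43 and 10.33 in controls and 10.74, 10.96 and 10.96 at 48 hpi. Injured samples all lay above the controls, with differences within replicate numbers of 0.52, 0.53 and 0.63. The log2 fold change was 0.56 ± 0.10 (SE, n = 3 per group, adjusted p = 0.0295 in limma, and 0.0113 with the block). The dimmer Loxl1 probe set was at 6.55 to 7.14 in controls and 7.44 to 7.65 at 48 hpi. It gave 0.69 ± 0.15, just outside the threshold (adjusted p = 0.0547 in limma) and inside it with the block (0.0103). With 2 samples in 1 group the call of Loxl1 was kept without 48 hpi replicate 1 (adjusted p = 0.0424 in limma) and lost without any of the other 5 samples (0.0622 to 0.128), while the log2 fold change stayed between 0.51 and 0.63.

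Lox, which encodes lysyl oxidase itself, was at 10.57, 11.11 and 10.72 in controls and 10.93, 11.17 and 11.61 at 48 hpi. The groups overlapped, since control replicate 2 lay above 48 hpi replicate 1. The log2 fold change was 0.44 ± 0.20 (SE, n = 3 per group, 95% confidence interval -0.04 to 0.92, adjusted p = 0.304 in limma, and 0.122 with the block). A second Lox probe set did not overlap between groups, at 8.43 to 8.91 in controls and 9.18 to 9.57 at 48 hpi, with 0.60 ± 0.16 (adjusted p = 0.0986, and 0.0691 with the block). The rise within replicate number 3 was the widest in both, at 0.89 and 1.14, against 0.07 to 0.36 in the other numbers. The third Lox probe set was dim, with a control mean of 3.65, and gave 0.21 ± 0.13. Lox minus Loxl1 moved by -0.12 ± 0.18 (SE), p = 0.5 in an exact two-sided permutation test over 3 against 3 samples, whose smallest possible p is 0.1. The value depended on single samples: it was -0.27 ± 0.10 without 48 hpi replicate 3, where the groups did not overlap, and -0.02 without control replicate 2.

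Of the 3 fibulin genes Fbln2 rose, Fbln1 fell with the block, and Fbln5 passed neither test. Fibulins are secreted calcium-binding glycoproteins of elastic fibres and basement membranes. Fbln1, whose product lies in the elastin core and binds many matrix proteins, was at 9.31, 9.24 and 8.98 in controls and 8.68, 8.60 and 8.02 at 48 hpi. Injured samples lay below all controls in all 3 Fbln1 probe sets. The brightest gave a log2 fold change of -0.74 ± 0.19 (SE, n = 3 per group, adjusted p = 0.0795 in limma, and 0.00792 with the block). The second gave -1.03 ± 0.22 (0.0517 and 0.0140), with values of 9.07 to 9.17 in controls and 7.52 to 8.42 at 48 hpi. The third, at a control mean of 6.67, gave -0.55 ± 0.12 and was the only member probe set called lower without the block (0.0466 and 0.0145). Its call was lost when any 1 of the 6 samples was left out (0.0637 to 0.155). The 48 hpi replicate 3 was the lowest sample in both brighter probe sets. Without it the second gave -0.75 and an adjusted p of 0.0302 in limma, while the brightest gave -0.54 and 0.144. The second was not called when any other sample was left out (0.0528 to 0.144).

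Fbln2, whose product lies at the border of elastic fibres and in basement membranes, was at 9.13, 9.09 and 9.03 in controls and 9.67, 9.77 and 9.42 at 48 hpi. The injured samples were all higher, with a log2 fold change of 0.53 ± 0.11 (SE, n = 3 per group, adjusted p = 0.0422 in limma, and 0.0176 with the block). The other Fbln2 probe set was among the dimmest on the array, at a control mean of 2.63, and gave 0.11 ± 0.13. The call of Fbln2 was kept without 48 hpi replicate 3 (adjusted p = 0.0488) and lost without any of the other 5 samples (0.0828 to 0.138). Fbln5, which encodes the fibulin that tethers tropoelastin to microfibrils and cells, was at 10.01, 10.02 and 9.93 in controls and 9.65, 9.83 and 9.36 at 48 hpi. Its injured samples were all lower, with a log2 fold change of -0.37 ± 0.13 (SE, n = 3 per group) that passed neither test (adjusted p = 0.173 in limma, and 0.0640 with the block). The dim second probe set of Fbln5, at a control mean of 4.43, had the opposite sign (0.21 ± 0.10).

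**Figure D2:**
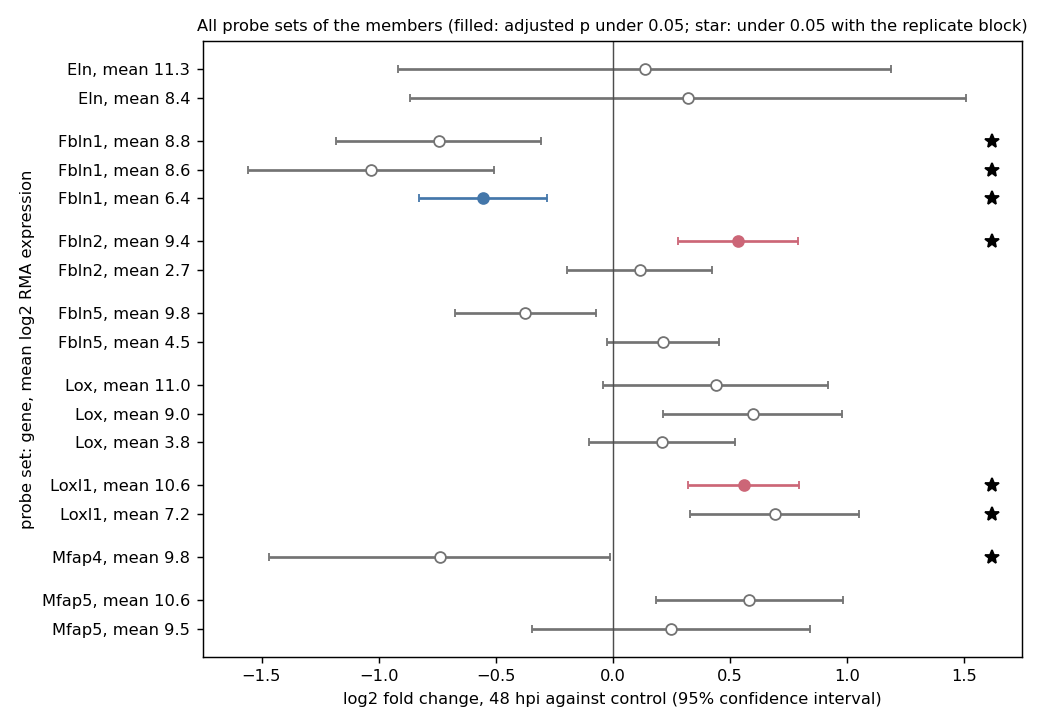
The horizontal axis gives the log2 fold change between control and 48 hpi, with its 95% confidence interval, for the 17 member probe sets, labelled by gene and mean log2 RMA expression (vertical axis). Filled points passed the adjusted p threshold of 0.05 and stars mark those that passed with the replicate block. All 3 Fbln1 probe sets and both Loxl1 probe sets carry a star, and 3 of the 17 probe sets, 1 each of Fbln2, Fbln5 and Lox, had means under 4.76, the 40th percentile of all probe sets.

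The sequence in front of each fibulin gene is shown so that the promoters of Fbln2, which rose, and of Fbln1 and Fbln5 can be compared. The 250 bases before the transcript start that lies farthest upstream are printed from RefSeq (GRCm38.p6), which had promoters for 4 of the 10 genes. Fbln1 lies at chr15:85205699-85205948 on the plus strand, Fbln2 at chr6:91212514-91212763 on the plus strand, and Fbln5 at chr12:101819120-101819369 on the minus strand, each read 5′ to 3′ along the gene. Capitals mark matches, on either strand, to 5 motifs, namely the TATA box with the letters TATAAA, the GC box with GGGCGG, the box CCAAT, the AP-1 site with TGANTCA and the element CAGAC of Smad binding.
Fbln1: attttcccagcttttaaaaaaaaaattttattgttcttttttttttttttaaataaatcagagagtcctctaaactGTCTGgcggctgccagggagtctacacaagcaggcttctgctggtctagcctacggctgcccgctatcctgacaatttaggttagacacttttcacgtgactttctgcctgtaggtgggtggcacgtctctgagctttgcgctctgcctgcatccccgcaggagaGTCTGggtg
Fbln2: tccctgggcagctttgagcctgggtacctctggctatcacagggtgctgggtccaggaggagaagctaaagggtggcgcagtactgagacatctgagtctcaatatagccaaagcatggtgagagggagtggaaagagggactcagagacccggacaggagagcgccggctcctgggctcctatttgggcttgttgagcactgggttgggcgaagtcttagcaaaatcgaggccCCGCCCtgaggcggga
Fbln5: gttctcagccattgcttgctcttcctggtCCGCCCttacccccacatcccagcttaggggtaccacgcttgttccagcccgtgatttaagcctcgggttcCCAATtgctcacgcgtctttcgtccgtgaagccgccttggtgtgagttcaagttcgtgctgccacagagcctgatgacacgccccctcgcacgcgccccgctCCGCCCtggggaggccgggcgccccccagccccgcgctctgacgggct
The Fbln1 window held 2 matches to the element CAGAC, a motif found in 42.2% of all 32851 promoter windows of this length, and 0 GC boxes. The Fbln2 window held 1 GC box and the Fbln5 window 2, beside 1 CCAAT box in Fbln5. GC boxes were found in 32.7% of all windows and CCAAT boxes in 33.8%. None of the 3 windows matched the TATA box (12.4% of all windows), the AP-1 site (6.75%) or the Smad-binding element GTCTAGAC (0.167%), and each held 1 E box (CANNTG, 66.2%). The share of G and C was 46.4% for Fbln1, 58.8% for Fbln2 and 65.2% for Fbln5. In Fbln5 the E box overlapped the CCAAT box, and no other matches overlapped. A match is only a match of letters in these windows.

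Differences between members of a family were compared sample by sample, which removes shifts shared by both genes. Only their change between groups can be read, since levels of different probe sets are not on 1 scale. Fbln1 minus Fbln2 was 0.09 ± 0.12 in controls and -1.19 ± 0.21 after injury (SD, n = 3, p = 0.1, exact permutation test), a change of -1.28 ± 0.14 (SE). Fbln2 minus Fbln5 went from -0.90 ± 0.03 to 0.00 ± 0.06, a change of 0.91 ± 0.04 (SE). Mfap4 minus Mfap5 changed by -1.32 ± 0.31 and Fbln1 minus Fbln5 by -0.37 ± 0.13. With the mean of a gene's probe sets in place of the brightest, Fbln2 minus Fbln5 changed by 0.40 and Fbln1 minus Fbln5 by -0.70. The groups did not overlap for these 4 of the 5 pairs compared. The share of all gene pairs without overlap was not counted, and the fibulin pairs share genes, so they are not independent. Each of the 4 had p = 0.1 in the exact two-sided permutation test and 0.125 after Benjamini-Hochberg adjustment over the 5 pairs. The smallest p that 3 against 3 samples allow is 0.1, so this design could not pass 0.05.

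**Figure D3:**
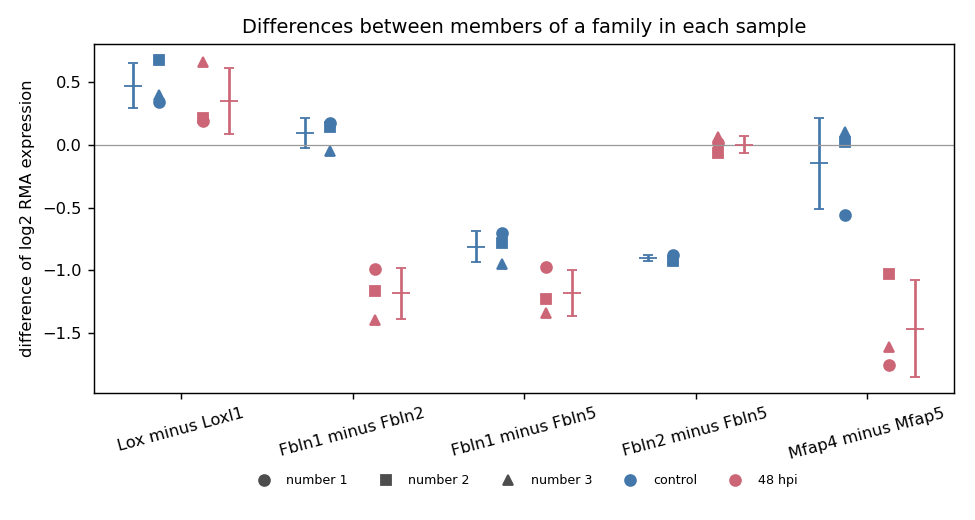
Difference in log2 RMA expression between 2 members of a family (vertical axis) in each control and 48 hpi sample, for 5 pairs (horizontal axis), each symbol being a sample, with means ± SD (n = 3) beside them. Only the shift between groups carries information. Fbln2 minus Fbln5 moved from -0.90 to 0.00, while Lox minus Loxl1 overlapped.

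Across all 8 genes, 4 were higher in every replicate number (Fbln2, Lox, Loxl1 and Mfap5) and 3 were lower in every number (Fbln1, Fbln5 and Mfap4), beside 26.6% and 27.3% of all genes. The groups did not overlap for 3 genes that were higher and 2 that were lower, beside 17.2% and 13.1% of all genes. By probe set they did not overlap for 6 that were higher and 4 that were lower of 17, beside 13.0% and 12.1%. Over the 17 probe sets 2 were called higher and 1 lower without the block, where 3.49% and 0.846% of all probe sets were, and 3 and 4 with the block, where 6.43% and 4.51% were. Loxl1 had the largest rise among called members. The 3 other genes with the most similar profile over the 6 samples, by root mean square difference of centred log2 values, were Lhfpl2 (0.02), Nop58 (0.05) and Parp3 (0.05).

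Of 21 other measured genes of elastic fibre assembly 1 rose and 1 fell without the block and 5 rose and 4 fell with it, with a median log2 fold change of -0.01. Emilin2, which encodes a glycoprotein of the elastin and microfibril interface family, rose from 6.75 ± 0.16 to 8.21 ± 0.47 (SD, n = 3), a log2 fold change of 1.46 ± 0.23 (SE, adjusted p = 0.0177 in limma). Fbln7, a further fibulin gene, fell by 0.85 ± 0.14 (adjusted p = 0.0201), from 7.60 to 7.83 in controls to 6.61 to 7.03 at 48 hpi. Of 12 genes of the lysyl oxidase family and its helpers, 0 rose and 1 fell in limma without the block (2 higher and 2 lower at an unadjusted p under 0.05), and 1 rose and 2 fell with it. Pcolce2, an enhancer of the procollagen C-proteinase that also cleaves pro-lysyl oxidase, fell by 0.82 ± 0.11 (adjusted p = 0.00948). The family member Loxl4, named after its values were seen, was at 8.88 to 9.39 in controls and 7.54 to 8.56 at 48 hpi, with a log2 fold change of -1.09 ± 0.26 that passed with the block (adjusted p = 0.0104) and not without it (0.0675 in limma). Its second probe set fell without the block, with -0.91 ± 0.16 (adjusted p = 0.0291 in limma). Loxl3, also named after its values were seen, gave -0.23.

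Genes for the turnover of elastin followed. Of 11 elastin-degrading proteases 2 rose and 0 fell (5 and 0 with the block), with a median of 0.42. Ctss, the macrophage protease cathepsin S, rose 3.51-fold (adjusted p = 0.000718 in limma), with control samples at 9.86 ± 0.19 and injured ones at 11.67 ± 0.13 (SD, n = 3), and Prtn3, a granule serine protease, rose by 0.92 ± 0.13 from a dim control mean of 4.66. Neutrophil elastase Elane, likewise outside the naming rule, stayed dim in both groups, at means of 3.61 and 3.60. Of 10 protease inhibitors 2 rose and 1 fell (2 and 3 with the block), with a median of -0.35 and 8 below 0. Slpi, an inhibitor of neutrophil elastase, rose 8.31-fold (log2 fold change 3.05 ± 0.34) and the metalloproteinase inhibitor Timp1 rose 5.53-fold (2.47 ± 0.30), whereas Reck fell by 0.60 ± 0.10. Of 13 collagens and lysyl hydroxylases, whose products are substrates of lysyl oxidases or modify the same lysines, 0 rose in limma without the block (5 at an unadjusted p under 0.05) and 7 with it. Their median was 0.35, and 12 lay above 0. The brightest, Col3a1 and Col1a2, gave 0.20 ± 0.13 and 0.08 ± 0.16. Of 9 genes of the TGF-beta response list 1 rose, Tgfbi (0.72 ± 0.10), and 2 with the block, with a median of -0.12. The list holds TGF-beta ligand genes as well as response genes. Its second gene with the block was the ligand gene Tgfb1 (0.39, adjusted p = 0.0336 in limma with the block), named outside the naming rule.

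**Figure D4:**
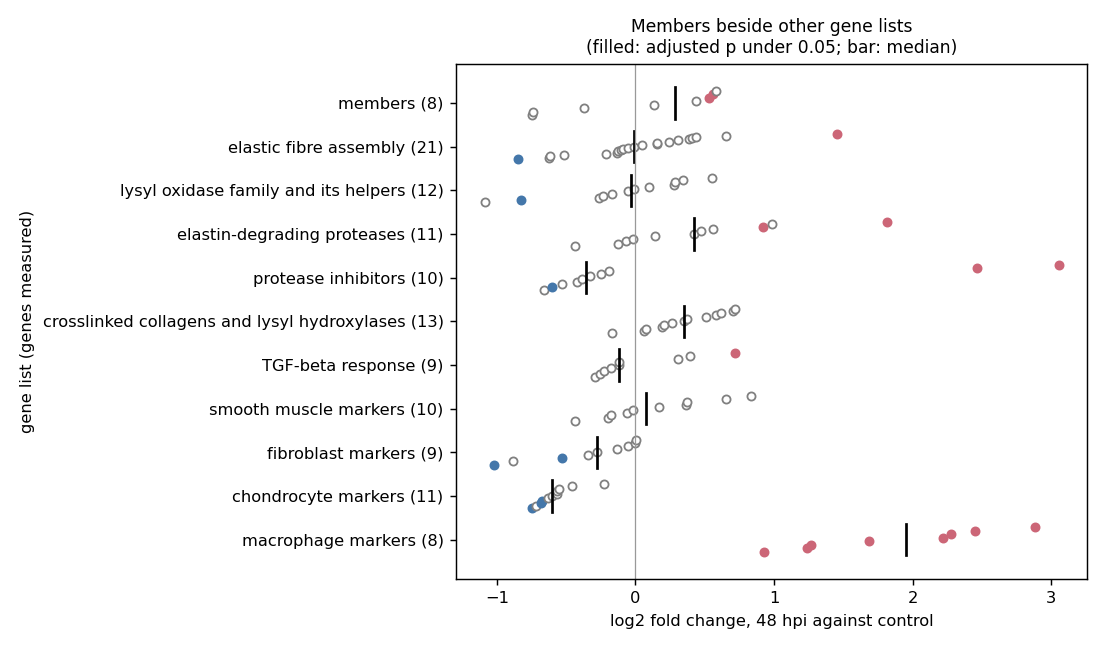
The horizontal axis gives the log2 fold change between control and 48 hpi for the 8 members and for the measured genes of 10 other lists (vertical axis). Each point is a gene, filled points passed the adjusted p threshold, and bars mark medians. The member median was 0.29, that of elastic fibre assembly genes -0.01 and that of chondrocyte markers -0.60.

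Cell type markers moved with injury in several lists, and their part in the member values was not tested. In bulk tissue, fewer cells of a type and less RNA per cell cannot be told apart. Of 9 fibroblast markers 2 fell (Scara5 by 1.02, Dpt by 0.53), 3 with the block. Of the 9, 1 lay above 0 and 8 below, with a median of -0.27. Pdgfra and Lum, named after their values were seen, gave 0.001 and -0.05. The summed linear level of the list, in which bright genes weigh most, ran from 29716 to 31574 in controls and from 22458 to 26361 at 48 hpi. The chondrocyte list lay below 0 in 11 of 11 genes. Of these 3 fell without the block, among them Chad (-0.74) and Hapln1 (-0.68), and 8 with it, and the sum of the list ran from 44020 to 52045 and from 29588 to 36795. All 8 macrophage markers rose, led by Itgam (2.88) and Msr1 (2.45), with sums of 1702 to 2157 and 4515 to 5476. Of 4 neutrophil markers 3 rose, among them S100a8 (4.27) and S100a9 (4.13), and all 7 cell division genes did, led by Birc5 (4.27) and Ccnb2 (3.61). Of 10 smooth muscle markers 0 rose or fell in limma, with or without the block, and 0 reached an unadjusted p under 0.05 without it. Of the 10, 5 lay above 0 and 5 below, with a median of 0.08. Acta2 (0.17) and Tagln (0.37) were the brightest, and the sum was 19012 in control replicate 3 against 30554 to 41794 in the other 5 samples. Of 8 endothelial markers 3 rose (4 with the block), including Cdh5 (0.71) and Tie1 (0.65). Of the 8, 6 lay above 0 and 2 below, with a median of 0.46. Of 5 pericyte markers 0 were called in limma without the block. Kcnj8, named after its values were seen, gave 0.68, was higher at an unadjusted p under 0.05 and rose with the block (adjusted p = 0.0209), while the brightest, Rgs5 and Cspg4, gave -0.23 and -0.22. Of 3 nerve and Schwann markers 1 fell, S100b (-0.57), and 2 with the block. Markers of the removed epithelium were not absent. The 2 brightest, Scgb1a1 and Scgb3a2, had control means of 12.88 and 12.32, at log2 fold changes of -2.57 and -2.07. Both passed with the block (adjusted p = 0.0146 and 0.0339 in limma) and not without it (0.146 and 0.229). The list did not move as 1: of 9 epithelial markers 4 lay above 0 and 5 below, with a median of -0.33. None of the 9 was called in limma without the block, while Scgb1a1 and Scgb3a2 alone were lower at an unadjusted p under 0.05 and with the block. As a sign of RNA integrity, the log2 difference between 3′ and 5′ probe sets of Actb was 1.02 to 1.74 in controls and 0.82 to 1.19 at 48 hpi, and that of Gapdh was 0.56 to 1.35 and 0.49 to 0.96.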

How the data were processed

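RNA of 6 pooled samples was hybridized by the authors to Affymetrix mouse genome arrays. The deposited values are log2 expression values, 1 per probe set and array, that the authors made by robust multi-array analysis (RMA). Tools in the submitters' processing notes are Affymetrix Expression Console 1.1, Partek 6.5 and RMA. RMA equalizes brightness between arrays, so a shift shared by most genes cannot be seen, and folds of dim genes are compressed. For arrays, their number limits the precision.

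From these values, 64 control probe sets were left out and 45037 were tested. A symbol was given to 34945 probe sets, several symbols to 932 and none to 9160, and 34741 were matched by Entrez identifier to RefSeq names (GRCm38.p6). A gene took its probe set with the highest mean. Groups were compared with limma 3.58.1 in R 4.3.3 (lmFit, then eBayes, two-sided, with no covariate beside group), at adjusted p 0.05 over all probe sets, with 4 residual degrees of freedom and 3.21 added by the shared spread. The study's methods used a two-way ANOVA over epithelium and mesenchyme. That test was not run, and a one-way, equal-variance ANOVA of the 6 mesenchyme samples is the alternative called the methods' ANOVA. Errors beside group means are SDs over the samples of the group, and errors beside fold changes are SEs. Each sample is a pool of its own, so p-values measure the spread between pools. Arrays of 1 group correlated at 0.987 to 0.994.

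After removal of group means, samples of the same replicate number correlated at 0.62, 0.36 and 0.34 across probe sets. Samples of different numbers correlated at -0.43 to 0.18. Numbers 2 and 3 were the least distinct, at 0.18 for control 3 with 48 hpi 2 and 0.11 for control 2 with 48 hpi 3. The labels do not say what the number marks, so the pairing comes from the data. The block leaves 2 residual degrees of freedom.

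The members and the gene lists were chosen with earlier results of these data known. Named genes were all members, called genes of both assembly lists, up to 2 rises and 2 falls of every other list or its 2 brightest genes where none was called, and the 3 genes most like the member with the largest called rise. Genes named outside this rule are marked. No member gene was called lower, so no such likeness was sought for a fall. Differences between members of a family used an exact permutation test over samples. Alternatives were a replicate block, a filter on dim probe sets, an intensity trend, array weights, median centring, other rules for probe sets, and samples left out. The fit was tested on simulated data.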

Additional observations from a re-analysis of the deposited data

How the results depend on the processing

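The direction of the change of Fbln1, Fbln2, Lox, Loxl1, Mfap4 and Mfap5 held in the 12 of 18 alternatives that recompute the fold change, 1 of them chosen after seeing the data. The other 6 change only the error or the adjustment. Eln, which ran from -0.33 to 0.49 when 1 sample was left out, turned without control replicate 1 (-0.33) and without 48 hpi replicate 2 (-0.08), and Fbln5 turned with the second brightest probe set (0.21), which is dim (Mfap4 has 1 probe set, which was kept there). Of 144 gene values under alternatives, 114 kept sign and side of the threshold, 19 lost a call and 8 gained one. Only Fbln2 and Loxl1 had a call to lose. Fbln2 was called in 8 of the 18 alternatives and Loxl1 in 9, so most of the total comes from genes that were not called. The cause was not tested where none is named.

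The number of genes called higher was 2. It was 0 with the second brightest probe set, 0 by the methods' ANOVA after Benjamini-Hochberg adjustment, 0 without both samples numbered 1 and 1 with the mean of probe sets. The number called lower was 0, against 2 with the replicate block, 1 with the mean of probe sets and 1 by the methods' ANOVA at unadjusted p. With the mean of probe sets Fbln1 was called (-0.78, adjusted p = 0.0184 in limma) and Fbln2 was not (0.32, 0.105), since its dim probe set enters the mean. Leaving out 1 sample gave 0 to 1 genes called higher and 0 lower. With the replicate block and without both samples numbered 1, the alternative chosen after seeing the data, 0 genes were called higher and 2 lower, Fbln1 and Mfap4.

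Of member probe sets, 2 were called higher and 1 lower. The ANOVA gave 5 and 3 of the 17 at unadjusted p, when it called 4353 and 3125 of all 45037 probe sets. After adjustment it gave 0 and 0, when it called 70 and 8 of all probe sets. The replicate block gave 4 called lower, array weights 2, the filter on dim probe sets 2 and median centring 0. In the same order, 2032, 463, 433 and 265 of all probe sets were called lower. Without both samples numbered 1, 0 and 0 were called, or 1 and 3 with the replicate block. All probe sets called higher and lower were then 683 and 144, or 1008 and 365 with the block. Leaving out 1 sample gave 0 to 1 called higher and 0 to 1 lower. All probe sets called then ran from 548 to 1086 higher and from 34 to 176 lower. Over all probe sets, 1572 were higher and 381 lower, against 2896 and 2032 with the block and 548 and 34 without 48 hpi replicate 3. The 5 differences between family members kept their sign in every alternative run on them. They ran from -1.37 to -1.10 for Fbln1 minus Fbln2, -0.70 to -0.29 for Fbln1 minus Fbln5, 0.40 to 0.94 for Fbln2 minus Fbln5, -0.27 to -0.02 for Lox minus Loxl1 and -1.54 to -1.15 for Mfap4 minus Mfap5. The mean of probe sets gave the extreme for Fbln1 minus Fbln5 (-0.70) and Fbln2 minus Fbln5 (0.40). The members' changes are small, and few arrays limit what can be called.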
